A study of Homo sapiens with 60 samples.

Results

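The genes described here are 37 genes of autophagy and of the lysosome, named by symbol and found by their gene identifiers among the 60675 genes of an RNA-seq count table. All 37 were expressed highly enough to be tested, and 16461 genes were tested in all. They were read in HT29 cells, an established human colon adenocarcinoma line. The treatments were hot-water extracts of 7 herbal medicines. The single herbs were Aconiti Lateralis Radix Preparata (aconite below), Bupleuri Radix (bupleurum), Cimicifugae Rhizoma (cimicifuga) and Citri Unshius Pericarpium (citrus peel). The formulas were Banhasasim-tang, Bojungikgi-tang and Yijung-tang. Each extract was given for 24 h at a high (500 µg/mL), a medium (100 µg/mL) and a low dose (20 µg/mL). Vehicle cells received DMSO, at 0.1% by the sample labels and at 2% by the series description. There were 3 libraries for vehicle and for each dose of 6 extracts, and 1 library for each dose of Bojungikgi-tang, which makes 60 libraries. Nothing in the labels says that replicates came from separate cultures, so p-values cover the variation among these libraries alone, and part of it may be technical.

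Autophagy encloses cell contents in a double membrane and delivers them to the lysosome, where acid hydrolases break them down. The kinase ULK1 and the beclin 1 lipid kinase complex start the membrane, ubiquitin-like proteins of the LC3 and GABARAP branches are attached to it, and receptors such as p62 (SQSTM1) tie cargo to it. The transcription factors TFEB and TFE3 switch on many lysosome and autophagy genes when the nutrient sensor mTORC1, which is controlled at the lysosome by folliculin (FLCN) and its partners, is less active. SQSTM1 is also a known target of NRF2, the factor that switches on antioxidant genes.

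TFEB and TFE3 bind a palindrome built on the letters CACGTG, with flanking letters that are often shared in lysosome gene promoters. RefSeq promoters on GRCh38.p14, which run from 250 bases before to 50 bases after each listed start, were found for 29 of the 37 genes. The 8 letters TCACGTGA, read on both strands, occurred in 5 of the 37 promoters listed for these 29 genes (13.51%), each of another gene, and in 0.98% of all 35116 promoters listed. The windows below hold the match farthest upstream in each of the 5, with the 8 letters in capitals (in GAA also the G and C that flank them). They show which members carry letters of the kind that TFEB and TFE3 bind, and a match is a description, not a binding site.
ATP6V0D1, chr16:67481190-67481237, minus strand: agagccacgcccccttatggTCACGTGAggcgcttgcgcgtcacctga
CTSA, chr20:45891289-45891336, plus strand: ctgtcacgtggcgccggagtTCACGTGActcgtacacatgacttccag
GAA, chr17:80101484-80101531, plus strand: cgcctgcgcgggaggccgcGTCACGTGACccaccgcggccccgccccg
LAMP1, chr13:113297190-113297237, plus strand: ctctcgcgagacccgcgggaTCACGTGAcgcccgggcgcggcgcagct
MCOLN1, chr19:7522562-7522609, plus strand: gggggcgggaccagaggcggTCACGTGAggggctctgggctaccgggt

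The same 8 letters flanked by G before and C after were present in 2 of the 37 promoters (5.41%), those of GAA and MCOLN1, and in 0.353% of all promoters. The 6 letters CACGTG, which lie inside both longer forms, were present in 8 of the 37 promoters (21.62%) and in 7.256% of all promoters. The letters TGACNNNGC, the core of the element that NRF2 binds, were present in 10 of the 37 promoters (27.03%) and in 13.347% of all promoters. SQSTM1, the member with the clearest differences below, had neither CACGTG nor TGACNNNGC at any of its 3 listed starts. The 250 bases before the most downstream of these starts are given because they belong to that member, at chr5:179820655-179820904 on the plus strand.
SQSTM1: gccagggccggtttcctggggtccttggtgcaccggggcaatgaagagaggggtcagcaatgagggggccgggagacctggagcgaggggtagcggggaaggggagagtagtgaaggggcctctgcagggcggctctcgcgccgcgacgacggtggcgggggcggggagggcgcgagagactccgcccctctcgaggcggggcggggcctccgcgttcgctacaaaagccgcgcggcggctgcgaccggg
A missing match says only that these letters are not in these windows.

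Library totals ran from 10.35 to 40.05 M counts with a median of 23.83 M, and levels are normalised counts per M counts (CPM). The libraries fall into 5 sets by their sample codes: vehicle alone; citrus peel and cimicifuga; bupleurum and aconite; Yijung-tang and Banhasasim-tang; and Bojungikgi-tang. Vehicle is therefore a library set of its own, and set and treatment cannot be told apart in comparisons with it, whereas high and low doses of an extract share a set. Colon epithelial markers were detected throughout (EPCAM 458 to 702 CPM), with summed levels of 9044 to 12510 CPM. The summed fibroblast markers were at 1.52 to 2.98 CPM and the endothelial markers at 0.915 to 2.69 CPM, with COL1A2, COL3A1, DCN, CDH5 and KDR at a median of 0 and COL1A1 (1.31), LUM (0.827) and PECAM1 (1.79 CPM) detected. The leukocyte markers summed to 1313 to 2251 CPM, nearly all of it LYZ, with PTPRC and CD3E at a median of 0 and CD14 at 3.28 CPM. The libraries that stood apart, in ribosomal protein genes or in RN7SL2 (a small cytoplasmic RNA), were 4: replicate 2 of high-dose aconite, of high-dose Banhasasim-tang and of medium-dose bupleurum, and replicate 1 of vehicle. None of the 4 is a library of citrus peel or cimicifuga. All groups share an estimate of spread, so leaving the 4 out can change the adjusted p of comparisons that hold none of them.

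In vehicle cells, the abundance order of the members, in CPM per kilobase of exon, began with CTSD (cathepsin D, an aspartic protease) at 228.1, PSAP (the precursor of the saposins) at 171.8, CTSZ (a cysteine carboxypeptidase) at 136.6, LAMP1 (a lysosomal membrane glycoprotein) at 70.8 and SQSTM1 at 50.2 CPM per kilobase. It ended with CTSO (a cysteine protease) at 1.71, GABARAPL1 at 1.51, CTSL (a cysteine protease) at 1.48 and GAA (acid alpha-glucosidase) at 0.803 CPM per kilobase. Neighbours such as ATP6AP1 (38.4) and CTSA (38.3 CPM per kilobase) did not differ beyond the spread of their libraries. Across all 60 libraries, 34 of the 37 members varied by less than 2-fold between their lowest and highest library; the exceptions were CTSL, ULK1 and CTSO.

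The main question the design poses is how the members' levels differ between the high and the low dose of each extract. Of 222 such tests (37 members in 6 extracts), 7 passed at a Benjamini-Hochberg adjusted p under 0.05 over all 16461 genes, and they fell on 5 members: SQSTM1 and OPTN among the cargo receptors, FLCN among the regulators, and CTSO and CTSL among the lysosomal proteases. In the high against low dose of cimicifuga 1 of 37 members was called, against 0.881% of all genes tested; it rose, as 0.425% of all genes did, while 0.456% fell. For bupleurum 2 of 37 members were called, against 0.292% of all genes; both fell, as 0.115% of all genes did, while 0.176% rose. For aconite 4 of 37 were called, against 11.0% of all genes, a share close to that of genes at large; 2 rose, as did 6.28% of all genes, and 2 fell, as did 4.72%. With only the aconite high- and low-dose libraries in the fit, no member was called for aconite, and the smallest adjusted p among these 4 members was 0.26 (SQSTM1). No member was called for citrus peel (0.0607% of all genes), Yijung-tang (0.0911%) or Banhasasim-tang (0.219%) by edgeR's quasi-likelihood test. At an unadjusted p under 0.05 the counts in those 3 extracts were 9, 1 and 9 of 37 in the same order. The shares of all genes at that threshold were 5.18%, 5.75% and 20.6%, again in that order. DESeq2 called 1 (OPTN), 0 and 1 (FNIP1). With Banhasasim-tang 6 members were called without high-dose replicate 3 and 3 without high-dose replicate 1, and with citrus peel 1 was called without high-dose replicate 3. The shares of all genes called in those fits are not given here.

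**Figure D1:**
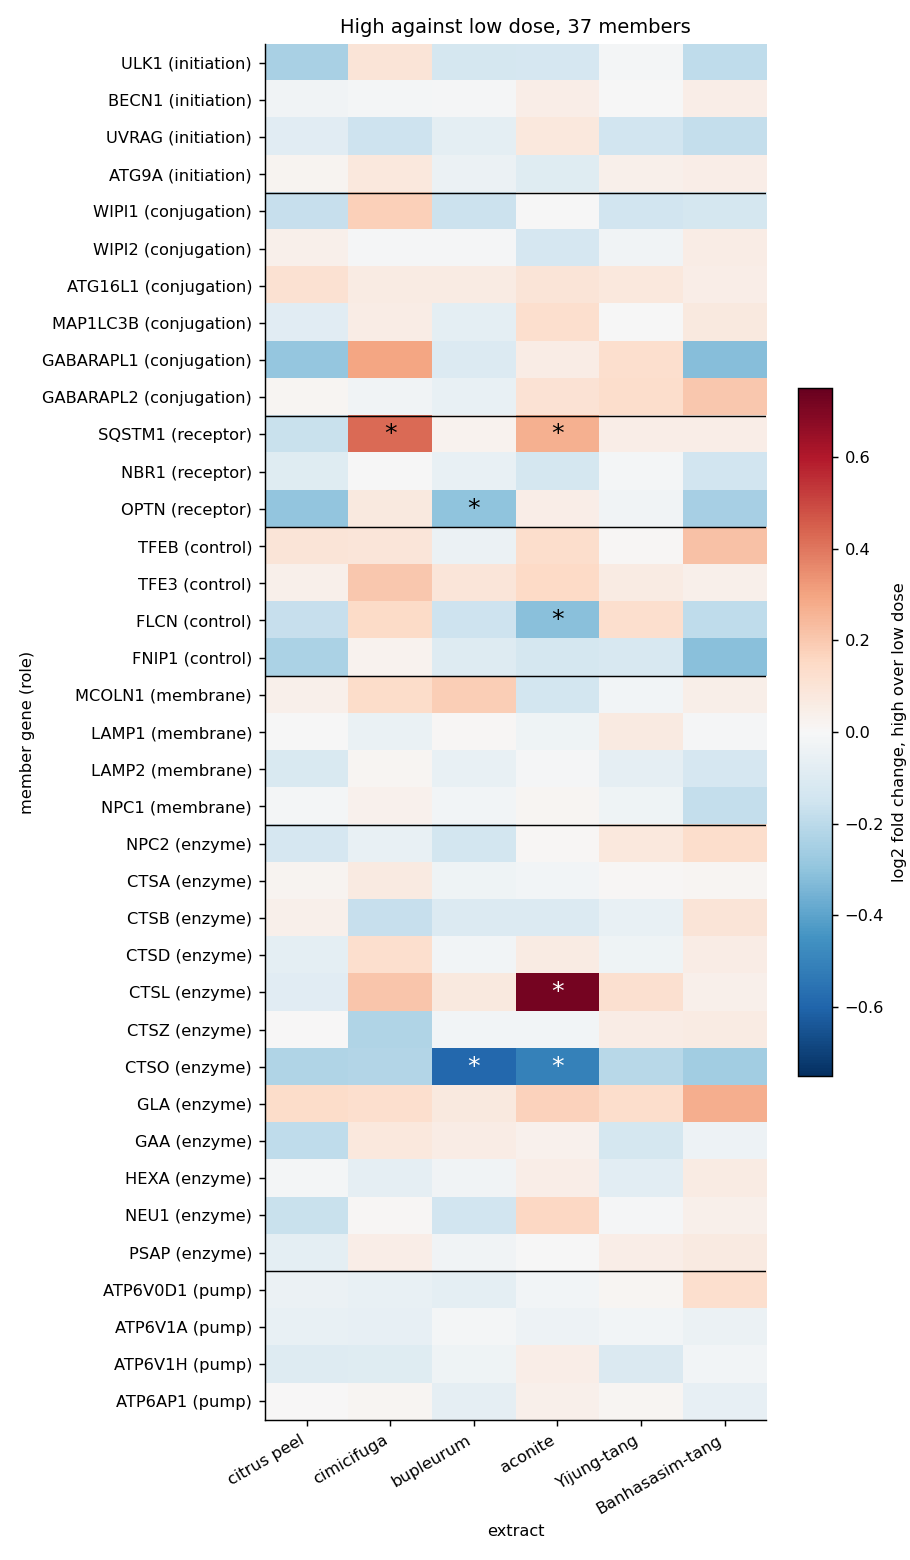
Log2 fold change of the high over the low dose (colour scale from -0.75 to 0.75) for each of the 37 members (rows, grouped by role) in 6 extracts (columns); an asterisk marks an adjusted p under 0.05. The 7 asterisks fall on SQSTM1, OPTN, FLCN, CTSL and CTSO, and most other cells are pale.

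SQSTM1 encodes p62, a receptor that binds ubiquitinated cargo and the LC3 and GABARAP proteins. With cimicifuga it was at 510.2, 493 and 514 CPM at the high dose, against 366, 383 and 380.4 CPM at the low dose. Every high-dose library lay above every low-dose library, and the medium-dose libraries, at 390.3 to 411 CPM, lay between the groups. The log2 fold change was 0.43 ± 0.06 (SE; adjusted p = 2.01e-06, edgeR), with means of 506 ± 11.4 CPM at the high dose and 376 ± 9.41 CPM at the low dose (SD, n = 3 each). Cimicifuga libraries 1 and 2 differ from library 3 in RN7SL2, and the log2 ratio of high to low dose was 0.42 within libraries 1 and 2 and 0.44 within library 3. As in all bulk RNA, a change in the number of cells that express a gene and a change in RNA per cell cannot be told apart.

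With aconite, SQSTM1 was at 492, 493 and 492 CPM at the high dose, against 407, 416 and 406 CPM at the low dose. The groups did not overlap, and the medium-dose libraries, at 440.2 to 444 CPM, were again intermediate. The log2 fold change was 0.27 ± 0.06 (adjusted p = 0.000904), a call lost without replicate 1 of every group (adjusted p = 0.0587). With citrus peel the direction was the opposite: SQSTM1 was at 331, 329.5 and 353 CPM at the high dose, against 371, 371 and 396 CPM at the low dose. All high-dose libraries lay below all low-dose libraries, but the log2 difference of -0.17 ± 0.06 did not pass (adjusted p = 0.505). Without the 4 libraries that stood apart, none of them of citrus peel, it was still -0.17, with an adjusted p of 0.0168. The citrus peel libraries compared were the same, and the estimate of spread shared by all groups differed. For bupleurum, Yijung-tang and Banhasasim-tang the log2 fold changes of SQSTM1 were 0.03 ± 0.06, 0.05 ± 0.06 and 0.05 ± 0.06 in that order, and high and low dose overlapped in each.

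The dose effect on SQSTM1 was larger with cimicifuga than with citrus peel, which share a library set, by 0.59 ± 0.08 on the log2 scale (adjusted p = 2e-05); SQSTM1 was the 1 member called in that comparison, in which 0.115% of all genes were called. It was also larger with aconite than with citrus peel, by 0.43 ± 0.08 (adjusted p = 0.000357). The call for cimicifuga against citrus peel was lost without replicate 1 of every group (adjusted p = 0.175). That for aconite against citrus peel was lost without replicate 1 (0.094) or 3 (0.0545) of every group. The aconite effect was not called different from that of cimicifuga, with a difference of -0.16 ± 0.08 (adjusted p = 0.433). Against bupleurum the aconite effect was larger by 0.24 ± 0.08, which did not pass (adjusted p = 0.15) but did without the 4 libraries that stood apart (0.24, adjusted p = 0.00543).

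**Figure D2:**
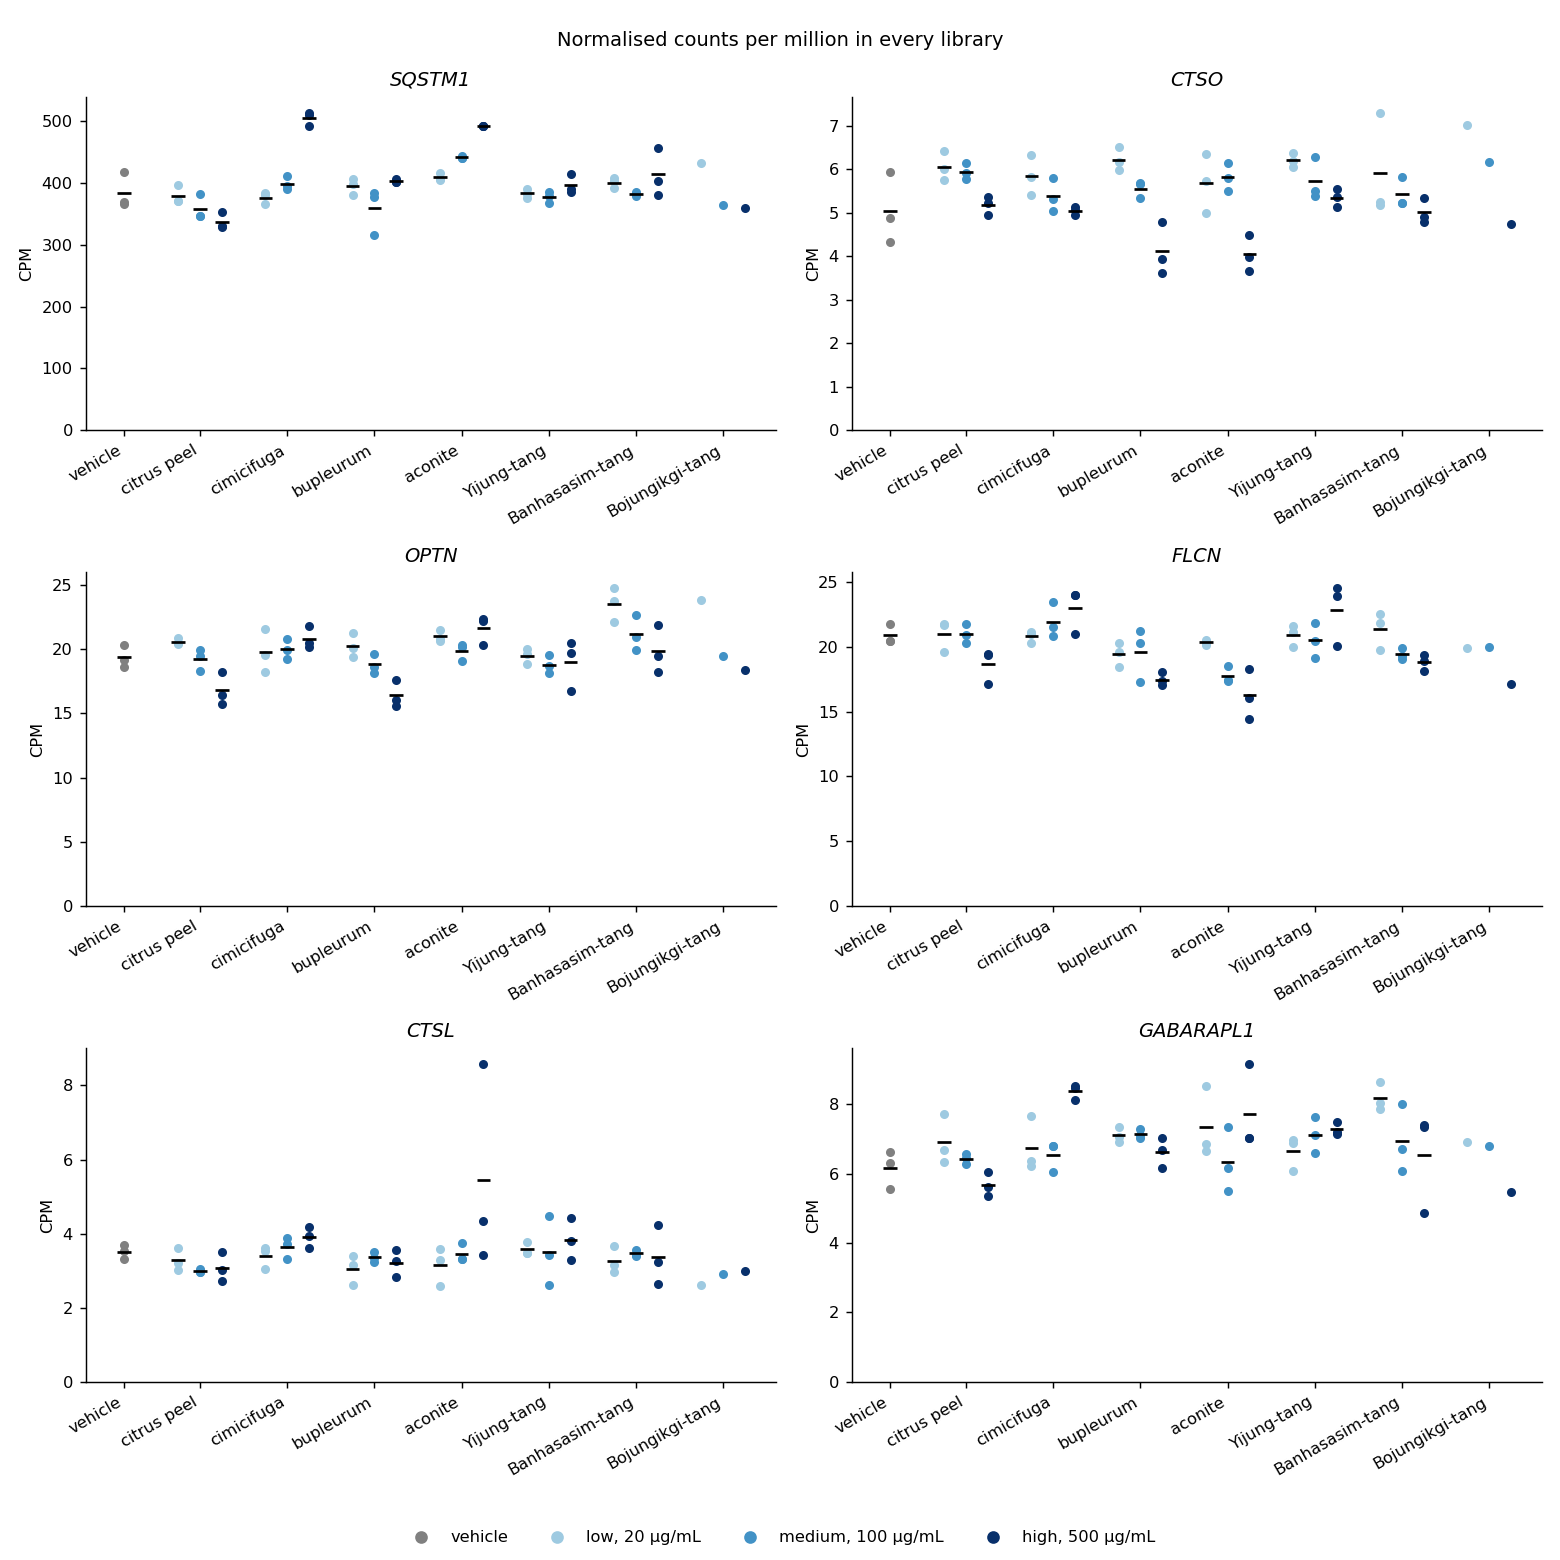
CPM in every library for 6 members, by extract; grey points are vehicle, light to dark blue points the low, medium and high dose, and bars are means of 3 libraries. SQSTM1 at the high dose of cimicifuga (493 to 514 CPM) and aconite (492 to 493 CPM) lies above all low-dose libraries, CTSO is lowest at the high dose of bupleurum and aconite, and a single aconite library reaches 8.58 CPM in CTSL.

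OPTN, optineurin, is a receptor in the removal of damaged mitochondria. With bupleurum it was at 17.6, 16.1 and 15.6 CPM at the high dose, against 20.1, 19.4 and 21.2 CPM at the low dose. High-dose libraries lay below all low-dose libraries, with a log2 fold change of -0.30 ± 0.07 (adjusted p = 0.0217). This call was lost on leaving out any of 4 libraries, with adjusted p of 0.195 without high-dose replicate 2, 0.235 without high-dose replicate 3, 0.0952 without low-dose replicate 1 and 0.254 without low-dose replicate 3, while the log2 fold change stayed between -0.36 and -0.23 over all alternatives.

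With citrus peel OPTN was at 15.7, 16.4 and 18.2 CPM at the high dose, against 20.9, 20.4 and 20.5 CPM at the low dose, also without overlap. Its log2 difference of -0.30 ± 0.07 was as large as with bupleurum but missed the threshold (adjusted p = 0.0603). As with cimicifuga, citrus peel libraries 1 and 2 differ from library 3 in RN7SL2. The log2 ratio of OPTN was -0.36 within libraries 1 and 2 and -0.17 within library 3. With Banhasasim-tang the log2 difference of OPTN was -0.25 ± 0.07 (adjusted p = 0.116), and the groups again did not overlap. With aconite OPTN was at 22.2, 20.4 and 22.4 CPM at the high dose, against 20.8, 21.5 and 20.7 CPM at the low dose, which overlap. The dose effect on OPTN was higher with aconite than with bupleurum, its partner in the library set, by 0.35 ± 0.10 (adjusted p = 0.042), and higher than with citrus peel by 0.34 ± 0.10 (adjusted p = 0.0454). Leaving out any of the 3 low-dose aconite libraries, among others, ended both calls. NBR1, the third receptor for ubiquitinated cargo, had log2 differences between -0.14 and -0.01 in the 6 extracts, all negative and none called. The share of all genes negative in all 6 is not given here.

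Of the 4 genes that start the autophagosome, none was called in any extract. These are ULK1, BECN1 (beclin 1), UVRAG, a partner of beclin 1, and ATG9A, a lipid scramblase. Their log2 differences ran from -0.24 (ULK1 with citrus peel) to 0.10 (ULK1 with cimicifuga). UVRAG was lower at the high dose without overlap in 4 of 6 extracts, with log2 differences of -0.18 to -0.14 in 3 of them, cimicifuga, Yijung-tang and Banhasasim-tang, that reached an unadjusted p under 0.05 only. The share of all genes lower without overlap in as many extracts is not given here.

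Of the 6 genes for the conjugation step, WIPI1, WIPI2, ATG16L1, MAP1LC3B, GABARAPL1 and GABARAPL2, none was called between doses. MAP1LC3B encodes LC3B, the protein most used to mark autophagosomes, and its log2 differences were between -0.08 and 0.13. ATG16L1, a scaffold of the enzyme that attaches LC3 to lipid, was higher at the high dose in 6 of 6 extracts, but by no more than 0.12. The share of all genes higher in 6 of 6 is not given here.

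GABARAPL1, of the GABARAP branch, varied most within this group. With cimicifuga it was at 8.52, 8.11 and 8.48 CPM at the high dose, against 6.22, 6.36 and 7.67 CPM at the low dose. The groups did not overlap, and the log2 difference of 0.29 ± 0.11 did not pass (adjusted p = 0.416). With citrus peel and Banhasasim-tang it lay lower at the high dose without overlap, by -0.29 ± 0.11 (adjusted p = 0.678) and -0.32 ± 0.13 (adjusted p = 0.171) in that order. GABARAPL3, a gene nearly identical to GABARAPL1, had at most 0.12 CPM, and how reads shared by the 2 genes were assigned was not tested.

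FLCN encodes folliculin, which acts on the Rag GTPases at the lysosome and so keeps TFE3 and TFEB out of the nucleus. With aconite it was at 18.3, 14.5 and 16.1 CPM at the high dose, against 20.3, 20.2 and 20.6 CPM at the low dose. All high-dose libraries lay below all low-dose libraries. The log2 fold change was -0.31 ± 0.08 (adjusted p = 0.00411), a call lost without replicate 2 (0.0914) or 3 (0.0574) of every group. With cimicifuga it was at 24.0, 24.0 and 21.0 CPM at the high dose, against 21.2, 21.0 and 20.3 CPM at the low dose, a log2 difference of 0.15 ± 0.07 that did not pass (adjusted p = 0.773).

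The dose effect on FLCN was lower with aconite than with cimicifuga by 0.46 on the log2 scale (-0.46 ± 0.11, adjusted p = 0.0103; 1 member called, 1.47% of all genes). It was lower than with Yijung-tang by 0.44 (-0.44 ± 0.11, adjusted p = 0.0137; 1 member called, 2.42% of all genes). The call against Yijung-tang was lost without Yijung-tang high-dose replicate 1 (adjusted p = 0.0833), Yijung-tang low-dose replicate 1 (0.0581) or Yijung-tang high-dose replicate 3 (0.0502). When the fit held just the libraries compared, the adjusted p was 0.225 against cimicifuga and 0.292 against Yijung-tang. With no filter on low counts it was 0.0576 and 0.086 in that order. The call against cimicifuga was also lost without replicate 1 (0.105), 2 (0.177) or 3 (0.118) of every group. So was that against Yijung-tang, without replicate 1 (0.204), 2 (0.0513) or 3 (0.196) of every group.

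FNIP1, the partner of folliculin, was lower at the high dose without overlap in 3 of 6 extracts, most with Banhasasim-tang, where the log2 difference of -0.31 ± 0.09 did not pass (adjusted p = 0.11). TFEB was not called in any extract and its log2 differences ran from -0.04 to 0.22. TFE3 was higher at the high dose in 6 of 6 extracts, by 0.04 to 0.20, and not called. Shares of all genes higher in 6 of 6, or lower without overlap in as many extracts as FNIP1, are not given here. With cimicifuga TFE3 was at 71.9, 74.1 and 69.7 CPM at the high dose, against 58.9, 64.6 and 63.7 CPM at the low dose, a log2 difference of 0.20 ± 0.07 (adjusted p = 0.219). With aconite it was at 77.8, 58.6 and 79.3 CPM at the high dose, against 65.6, 64.4 and 65.2 CPM at the low dose. High-dose replicate 2, which stood apart, was the low value. Without the 4 libraries that stood apart, TFE3 was called in both extracts, at 0.20 with cimicifuga (adjusted p = 0.003) and 0.27 with aconite (adjusted p = 4.35e-05). None of the 4 is a cimicifuga library, so the cimicifuga libraries compared were unchanged.

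CTSO was lower at the high dose in 6 of 6 extracts. With bupleurum it was at 3.95, 4.79 and 3.63 CPM at the high dose, against 6.53, 5.98 and 6.17 CPM at the low dose. The groups did not overlap, and the log2 fold change was -0.59 ± 0.10 (adjusted p = 0.000843). This call was lost without replicate 1 (adjusted p = 0.274) or 3 (0.231) of every group. With aconite CTSO was at 4.49, 4.00 and 3.66 CPM at the high dose, against 5.74, 6.35 and 5.00 CPM at the low dose, again without overlap. The log2 fold change was -0.51 ± 0.11 (adjusted p = 0.00116), a call lost without replicate 2 of every group (adjusted p = 0.0607). The medium-dose libraries of these extracts were at 5.34 to 5.68 CPM with bupleurum and 5.51 to 6.15 CPM with aconite.

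In the other 4 extracts CTSO was also lower at the high dose, by 0.21 to 0.26 on the log2 scale (from -0.26 with Banhasasim-tang to -0.21 with Yijung-tang), and no call was made. Its high-dose libraries lay below all low-dose libraries in 5 of 6 extracts, Banhasasim-tang being the exception. Between 7.65% and 9.67% of all genes did so in each of those 5 extracts taken alone. The share of all genes that did so in 5 extracts, or were lower in 6 of 6, is not given here. In the vehicle libraries CTSO ranged from 4.33 to 5.94 CPM, a range that overlaps the high and the low dose of aconite.

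CTSL rose with aconite by 0.72 ± 0.18 (log2; adjusted p = 0.00636), but this rested on 1 library. The high-dose libraries were at 3.42, 8.58 and 4.33 CPM, against 2.59, 3.59 and 3.29 CPM in the low-dose libraries, and the groups overlapped. Without high-dose replicate 2 the adjusted p was 0.26, without the 4 libraries that stood apart the log2 difference was 0.32 (adjusted p = 0.172), and without low-dose replicate 1 it was 0.068. Ribosomal protein genes in the same replicate 2 lay a median of 0.46 above their mean over the high-dose aconite libraries on the log2 scale. The medians were -0.26 and -0.18 in replicates 1 and 3. The part of this in the CTSL result was not tested. GLA (alpha-galactosidase A) was likewise at 53.3 CPM in high-dose replicate 2, against 32.4 to 39.0 CPM in the low-dose libraries, and was not called.

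Among the other cathepsins, CTSZ with cimicifuga was at 217, 227 and 244 CPM at the high dose, against 276, 276 and 251 CPM at the low dose, a log2 difference of -0.22 ± 0.07 (adjusted p = 0.113) that passed without the 4 libraries that stood apart (adjusted p = 0.00199). CTSB differed by -0.17 ± 0.05 in the same comparison (adjusted p = 0.188, and 0.0384 without the 4 libraries). For both genes the cimicifuga libraries compared were unchanged, since none of the 4 is among them. CTSA (a serine carboxypeptidase) and CTSD stayed within -0.07 to 0.13 in all 6 extracts. No call was made for GLA, GAA, HEXA (a subunit of beta-hexosaminidase), NEU1 (a sialidase), PSAP or NPC2, the cholesterol carrier of the lysosome lumen.

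No gene of the lysosomal membrane or of the proton pump was called between doses. MCOLN1 (a calcium channel), LAMP1, LAMP2 and NPC1 (a cholesterol exporter) had log2 differences between -0.18 and 0.19. The pump genes ATP6V0D1, ATP6V1A, ATP6V1H and ATP6AP1, which acidify the lysosome, had log2 differences between -0.11 and 0.12. ATP6V1A, the catalytic subunit, was lower at the high dose in 6 of 6 extracts, but by no more than 0.06 (-0.06 at the lowest). The share of all genes lower in 6 of 6 is not given here.

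The 5 members whose promoters hold TCACGTGA, shown above, were not called in any of the 6 comparisons of doses. Their median log2 difference was -0.02 with aconite (range -0.13 to 0.03) and 0.06 with cimicifuga (range -0.05 to 0.14), 0.006 with bupleurum, 0.007 with Yijung-tang, 0.02 with Banhasasim-tang and -0.002 with citrus peel. None of SQSTM1, OPTN, FLCN and CTSL, which were called, had CACGTG in the windows searched, and only 7.256% of all promoters had it. CTSL had TGACNNNGC, as did 13.347% of all promoters. CTSO, the other member called, is not given here.

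Over all 37 members the median log2 difference between high and low dose was -0.07 with citrus peel, 0.03 with cimicifuga, -0.04 with bupleurum, 0.01 with aconite, -0.004 with Yijung-tang and 0.04 with Banhasasim-tang, against medians for all genes between -0.0015 (citrus peel) and 0.0136 (aconite). With aconite the median size of the difference, regardless of sign, was 0.08 for the members and 0.15 for all genes tested. The log2 difference plus or minus 2 SE lay within -0.5 to 0.5 for 34 to 36 of the 37 members, depending on the extract. With citrus peel 11 of 37 members had all high-dose libraries below all low-dose libraries, where 7.82% of all genes did, and 1 member had all above, where 7.25% did. With cimicifuga 8 members had all high-dose libraries above and 5 all below, where 8.60% and 8.12% of all genes did. With bupleurum 2 lay above and 8 below (7.47% and 7.65% of all genes), and with aconite 1 above and 4 below (9.93% and 9.67%). With Yijung-tang 3 lay above and 4 below (7.61% and 7.96%), and with Banhasasim-tang 1 above and 8 below (7.20% and 6.31%).

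Other genes of the same pathways, taken from lists of 149 tested genes, gave 24 calls between doses, 22 of them with aconite. In the high against low dose of aconite 22 of the 149 were called, 11 higher and 11 lower, against 11.0% of all genes. With only the aconite high- and low-dose libraries in the fit, 19 of the 22 calls were lost, and those of DDIT4, SESN2 and ATP6V1B1 were kept. Leaving out 1 aconite library ended 12 of the 22 (high-dose replicate 2), 13 (low-dose replicate 2), 11 (low-dose replicate 1) or 2 to 4 (the other libraries), and leaving out the 4 libraries that stood apart ended 9. In the same comparison 5 of 42 ribosomal protein genes rose and none fell (median 0.27). Each of the 5 was highest in high-dose replicate 2, which stood apart. RPL27 was at 399.9, 776.5 and 405.6 CPM at the high dose, against 362.3, 380 and 385 CPM at the low dose. Of 8 colon epithelial markers, CEACAM5, KRT20 and CDH17 rose and VIL1 fell. KRT20 was at 259.7, 361.8 and 272.2 CPM at the high dose, against 240, 257.1 and 266.4 CPM at the low dose, which overlap. CEACAM5, an adhesion protein, was at 12.1, 8.65 and 9.81 CPM at the high dose, against 5.84, 5.26 and 5.14 CPM at the low dose of aconite. LUM, 1 of 2 fibroblast markers tested, was called higher, at 1.08, 2.62 and 1.22 CPM at the high dose, against 1.17, 0.581 and 0.602 CPM at the low dose. No marker of leukocytes or endothelium was called, and the part of these genes in the aconite results was not tested. Counts for the other extracts were 1 of 149 with cimicifuga, 1 with Banhasasim-tang, and 0 with citrus peel, bupleurum and Yijung-tang by edgeR. At an unadjusted p under 0.05 those last 3 extracts had 12, 3 and 3 genes, where 5.18%, 4.32% and 5.75% of all genes passed. DESeq2 called 2, 0 and 0.

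The largest differences lay among 27 regulators of mTORC1 and nutrient sensing, of which 2 rose and 3 fell with aconite. In the same comparison 6.28% of all genes rose and 4.72% fell. DDIT4 (REDD1, an inhibitor of mTORC1 induced by stress) was at 68.6, 78.2 and 71.4 CPM at the high dose, against 19.4, 19.5 and 19.7 CPM at the low dose. The log2 fold change was 1.89 ± 0.08 (adjusted p = 7.05e-23), and the medium-dose libraries stayed at 19.6 to 20.8 CPM. SESN2, a leucine sensor induced by amino acid stress, was at 29.9, 22.0 and 30.3 CPM at the high dose, against 13.2, 14.9 and 12.5 CPM at the low dose (log2 1.03 ± 0.11, adjusted p = 5.9e-10). Its relative SESN1, a target of p53, moved the other way, at 19.4, 24.6 and 19.5 CPM at the high dose, against 30.7, 30.3 and 37.2 CPM at the low dose (log2 -0.64 ± 0.09, adjusted p = 4.7e-07), a call that was lost with only the aconite high- and low-dose libraries in the fit (adjusted p = 0.122). SESN3 also fell (log2 -0.80 ± 0.21, adjusted p = 0.00878), a call that was lost without low-dose replicate 1 (adjusted p = 0.0791) or 2 (0.0517). FNIP2, a second partner of folliculin, fell by 0.28 on the log2 scale; its call was lost without aconite high-dose replicate 2 (adjusted p = 0.228), low-dose replicate 1 (0.0727) or low-dose replicate 2 (0.0848).

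Among 36 other lysosomal enzymes 4 rose and 2 fell with aconite, where 6.28% of all genes rose and 4.72% fell. DNASE2, the acid nuclease, was at 21.0, 20.6 and 19.4 CPM at the high dose, against 13.4, 14.7 and 14.6 CPM at the low dose (log2 0.51 ± 0.07, adjusted p = 1.82e-06; 0.064 with only those libraries in the fit). ARSB, a sulfatase, fell by 0.49 (log2 -0.49 ± 0.12, adjusted p = 0.00559), a call that was lost without aconite high-dose replicate 2 (adjusted p = 0.106) or the 4 libraries that stood apart (0.0768). Among 13 other cargo receptors 1 rose and 2 fell. CALCOCO2 (NDP52) was at 31.3, 41.7 and 34.0 CPM at the high dose, against 26.6, 26.9 and 26.4 CPM at the low dose (log2 0.41 ± 0.07, adjusted p = 8.33e-05; 0.262 with only those libraries in the fit). TRIM5 fell by 0.33 (log2 -0.33 ± 0.06, adjusted p = 0.000142; 0.186 with only those libraries in the fit). It was also the 1 receptor called with Banhasasim-tang (-0.27 ± 0.06, adjusted p = 0.0469), a call that was lost without high-dose replicate 2 (adjusted p = 0.606) and without any low-dose replicate (0.102, 0.236 and 0.122), or without the 4 libraries that stood apart (0.313).

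Of 31 other autophagosome genes 3 rose and 2 fell with aconite, where 6.28% of all genes rose and 4.72% fell. The smallest adjusted p was that of WDR45B (0.17 ± 0.04, adjusted p = 0.0055), a call lost without high-dose replicate 2 (adjusted p = 0.0919). Of 23 other membrane genes only TPCN1, a lysosomal ion channel, was called, and it fell by 0.31 (log2 -0.31 ± 0.10, adjusted p = 0.0367). That call was lost without high-dose replicate 2 (adjusted p = 0.39), low-dose replicate 2 (0.149) or low-dose replicate 3 (0.078). Among 19 other pump genes ATP6V1B1 fell and TMEM9 rose, the TMEM9 call being lost without high-dose replicate 2 (adjusted p = 0.351) or low-dose replicate 1 (0.165) or 2 (0.153). ATP6V1B1, a subunit found in specialised acid-secreting cells, was at 12.1, 13.3 and 13.7 CPM at the high dose, against 19.2, 22.7 and 22.0 CPM at the low dose of aconite (log2 -0.71 ± 0.09, adjusted p = 8.15e-08). It also fell with cimicifuga, to 15.3, 17.0 and 19.7 CPM at the high dose, against 22.2, 22.5 and 23.0 CPM at the low dose (log2 -0.39 ± 0.09, adjusted p = 0.0102). The cimicifuga call was lost without high-dose replicate 1 (adjusted p = 0.207), high-dose replicate 2 (0.0777), low-dose replicate 2 (0.0522) or low-dose replicate 3 (0.0803).

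**Figure D3:**
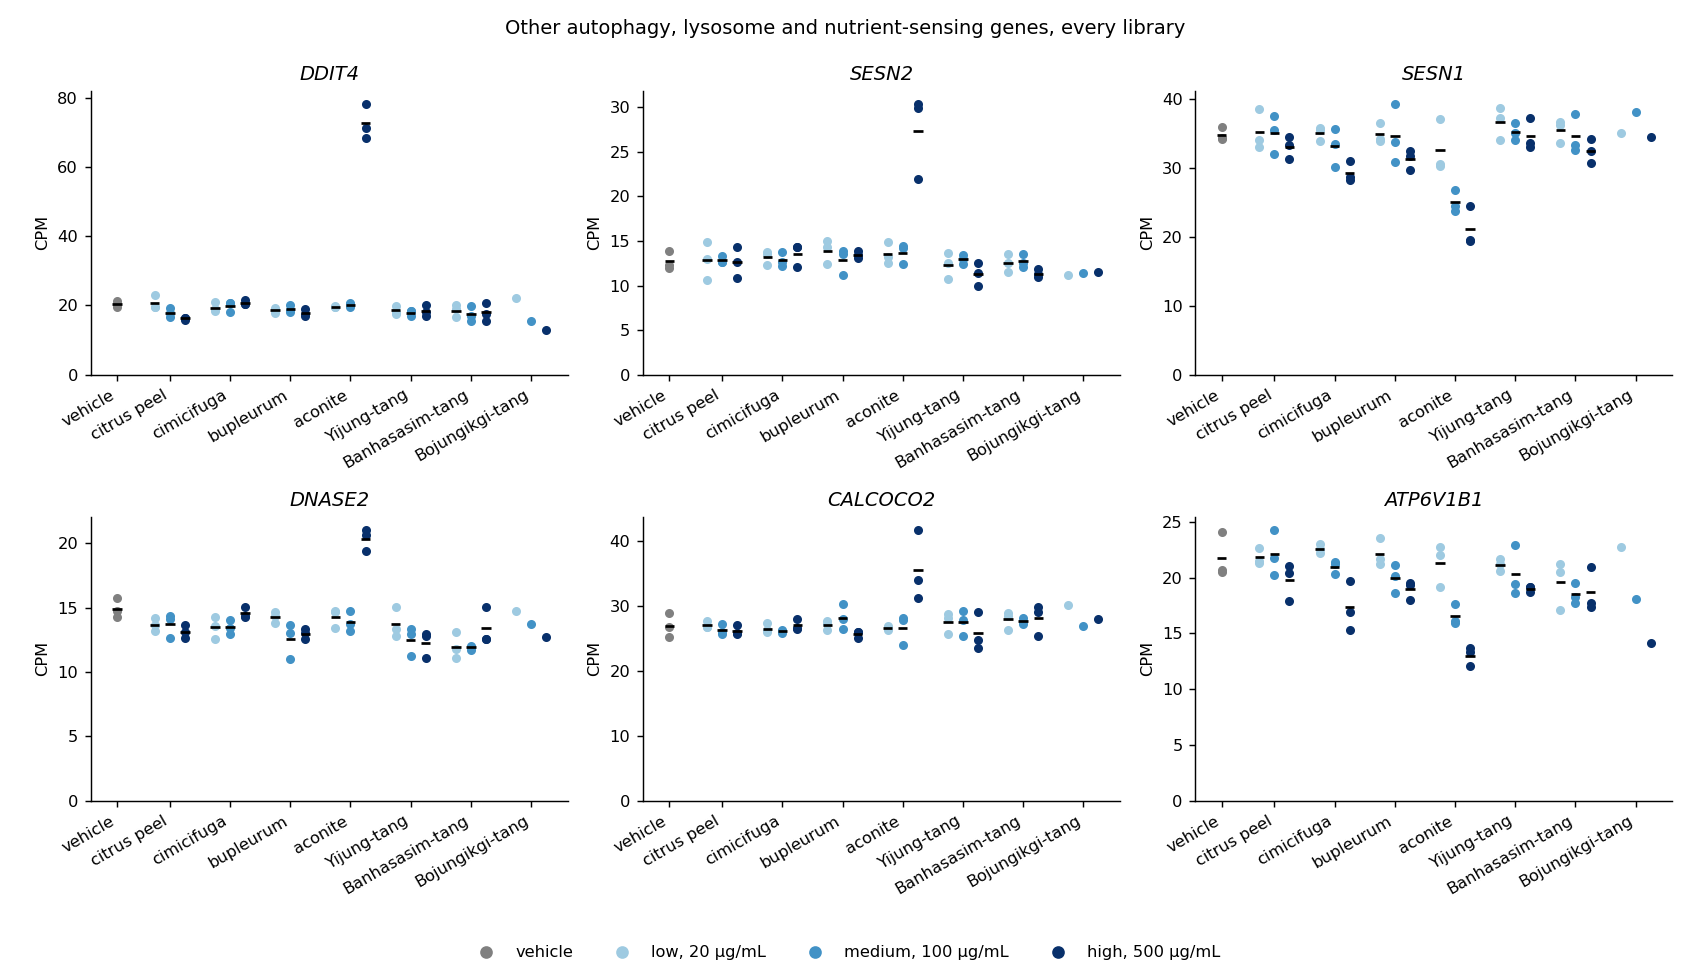
CPM in every library for 6 further genes of nutrient sensing, lysosome and autophagy, by extract; grey points are vehicle, light to dark blue points the low, medium and high dose, and bars are means of 3 libraries. DDIT4 (68.6 to 78.2 CPM), SESN2 (22.0 to 30.3 CPM) and DNASE2 (19.4 to 21.0 CPM) are raised at the high dose of aconite, whereas SESN1 and ATP6V1B1 are lowest there.

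SQSTM1 was read beside 15 NRF2 target genes. With cimicifuga 13 of the 15 rose, with a median log2 difference of 0.54, where 0.425% of all genes rose. With aconite, where 6.28% of all genes rose, 14 did (median 0.70), 7 of them also with only the compared libraries in the fit. With bupleurum 10 rose (median 0.32), as did 0.176% of all genes. With Banhasasim-tang 2 rose (median 0.23) and with Yijung-tang 1 rose (median 0.17). Of all 16461 genes tested, 13 rose with Banhasasim-tang and 12 with Yijung-tang. Both Banhasasim-tang calls were lost without high-dose replicate 2, which stood apart (AKR1B10 adjusted p = 0.21, ALDH3A1 0.168), and AKR1B10 also without low-dose replicate 2 (0.0501). The Yijung-tang call, AKR1B10, was lost without high-dose replicate 3 (0.0812) or low-dose replicate 2 (0.0706) or 3 (0.0863). None was called with citrus peel (median 0.11), where SQSTM1 was lower at the high dose in 3 of 3 libraries. Of the 15, 10 had all high-dose citrus peel libraries above all low-dose libraries and 0 had all below. Of all genes, 7.25% had all above and 7.82% all below. HMOX1, which breaks down heme, was at 18.2 ± 0.45 CPM at the high dose of cimicifuga and 8.54 ± 0.39 CPM at the low dose (log2 1.09 ± 0.09, adjusted p = 6.54e-12). GCLM, a subunit of the enzyme that limits glutathione synthesis, was at 111.8 ± 2.02 CPM at the high dose and 63.1 ± 2.02 CPM at the low dose of cimicifuga (SD, n = 3 each; log2 0.82 ± 0.07, adjusted p = 1.12e-10). With bupleurum GCLM rose by 0.37 ± 0.07 (adjusted p = 0.00677) while SQSTM1 differed by 0.03 ± 0.06. The GCLM call was lost without bupleurum high-dose replicate 1 (adjusted p = 0.0558) or low-dose replicate 1 (0.0952), and 6 of the 10 bupleurum calls were kept without low-dose replicate 1. The difference in SQSTM1 between bupleurum and cimicifuga was not tested, nor was the part of NRF2 in the SQSTM1 results.

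**Figure D4:**
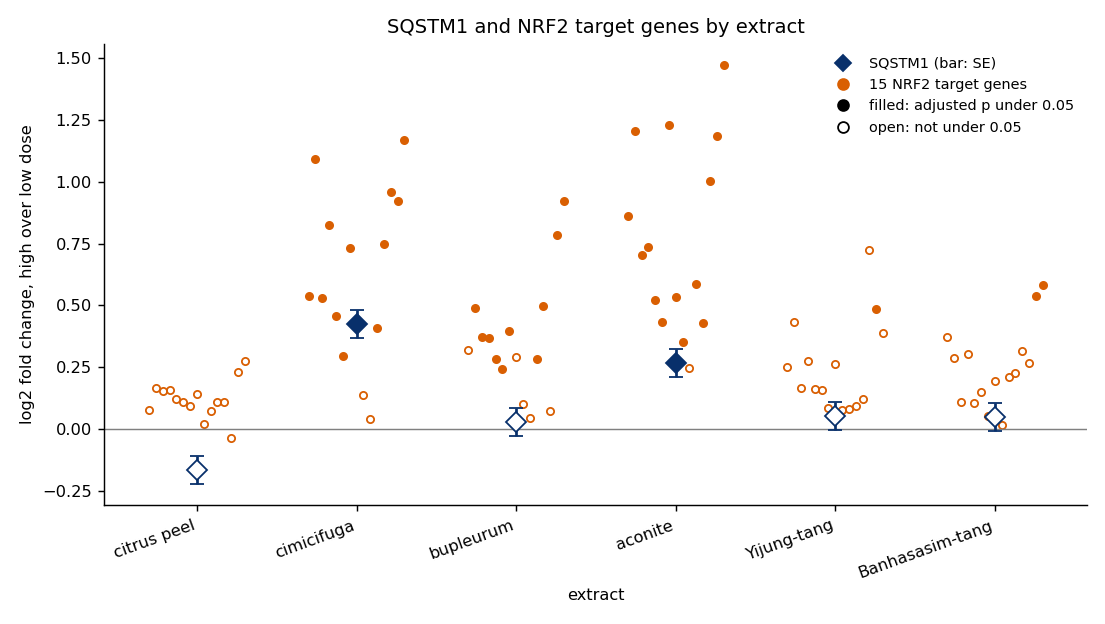
Log2 fold change of the high over the low dose for SQSTM1 (diamonds, bars are SE) and for 15 NRF2 target genes (circles) in 6 extracts; filled symbols had an adjusted p under 0.05. SQSTM1 is filled with cimicifuga (0.43) and aconite (0.27), and open with bupleurum (0.03), where 10 circles are filled.

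Comparisons with vehicle ask the same of the high dose against cells without extract. With aconite 4 of 37 members were called, against 15.8% of all genes, and they were SQSTM1 (0.36 ± 0.06, adjusted p = 6.23e-06), FLCN (-0.36 ± 0.08, adjusted p = 0.000793), CTSL (0.56 ± 0.18, adjusted p = 0.0305) and CTSO (-0.33 ± 0.11, adjusted p = 0.0364). SQSTM1 was at 492, 493 and 492 CPM in high-dose aconite cells, against 418, 369.5 and 365.5 CPM in vehicle cells. CTSL was not called without aconite high-dose replicate 2 (adjusted p = 0.549) or without vehicle replicate 1 (0.0905), 2 (0.0636) or 3 (0.0671), and without the 4 libraries that stood apart its log2 difference was 0.12 (adjusted p = 0.679). With only the high-dose aconite and vehicle libraries in the fit none of the 4 was called, with adjusted p from 0.174 (SQSTM1) to 0.531 (CTSL). CTSO was not called without aconite high-dose replicate 2 (0.0573) or 3 (0.243), or vehicle replicate 2 (0.0573) or 3 (0.283). The members called numbered 11 when the 4 libraries that stood apart were left out, 7 higher and 4 lower, and TFE3 (0.30, adjusted p = 3.43e-05) and TFEB (0.31, adjusted p = 0.0288) were then among those that rose. The share of all genes called in that fit is not given here, so the 11 cannot be set against genes at large.

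With cimicifuga 3 of 37 members were called against vehicle, where 1.33% of all genes were. SQSTM1 rose by 0.40 ± 0.06 (adjusted p = 6.32e-06), at 510.2, 493 and 514 CPM in high-dose cells, against those same vehicle cells. GABARAPL1 rose by 0.45 ± 0.11 (adjusted p = 0.0271), at 8.52, 8.11 and 8.48 CPM in high-dose cells, against 6.62, 5.56 and 6.30 CPM in vehicle cells. CTSZ fell by 0.28 (log2 -0.28 ± 0.07, adjusted p = 0.0135), at 217, 227 and 244 CPM in high-dose cells, against 282, 277 and 275 CPM in vehicle cells. The GABARAPL1 call was lost without cimicifuga replicate 1 (0.12), 2 (0.0604) or 3 (0.0749) or vehicle replicate 2 (0.206) or 3 (0.0573). The CTSZ call was lost without cimicifuga replicate 1 (0.173) or 2 (0.0752) or vehicle replicate 1 (0.0773) or 2 (0.0522).

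No member was called by edgeR against vehicle with citrus peel (0.0243% of all genes), bupleurum (1.48%), Yijung-tang (1.12%) or Banhasasim-tang (1.06%). The counts at an unadjusted p under 0.05 were 9, 9, 5 and 3 of 37 in that order, and DESeq2 called 0, 2 (OPTN and FLCN, both lower), 0 and 0. The shares of all genes at that unadjusted threshold are not given here. These comparisons share the 3 vehicle libraries.

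Of the 7 comparisons of dose effects between extracts, aconite against citrus peel called 2 members, against 1.96% of all genes, and aconite against bupleurum called 1, against 1.83%. Aconite against Banhasasim-tang called no member (1.68% of all genes; 7 members at an unadjusted p under 0.05; 0 by DESeq2). Banhasasim-tang against Yijung-tang called none (0 of all genes; 3 members at an unadjusted p under 0.05; 0 by DESeq2). The aconite comparisons share the aconite libraries. Shares of all genes at an unadjusted p under 0.05 are not given here for comparisons of dose effects.

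The values of Bojungikgi-tang, from a single library at each dose, carry no replicate check, and the intervals given are exact 95% binomial intervals on the log2 ratio that cover counting error only. At a log2 ratio of 0.5 or more in size, no member was higher and 1 was lower, against 5.77% and 7.47% of all genes tested. That member was CTSO, at 4.75 CPM at the high dose against 7.03 CPM at the low dose, a log2 ratio of -0.56 (-1.01 to -0.13), with 6.18 CPM at the medium dose. OPTN was at 18.4 CPM at the high dose against 23.8 CPM at the low dose (-0.37, -0.60 to -0.15). GAA (-0.44, -0.96 to 0.05), MCOLN1 (-0.41, -0.77 to -0.06) and GABARAPL1 (-0.34, -0.77 to 0.08) were also lower at the high dose. SQSTM1 was at 359 CPM at the high dose against 432 CPM at the low dose (-0.27, -0.32 to -0.21). The median log2 ratio of the 37 members was -0.11, and that of all genes tested was -0.02.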

How the data were processed

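Total RNA of HT29 cells was sequenced as directional paired-end libraries, per the labels' protocols. The authors deposited expected counts per gene (60675 genes), made with RSEM 1.3.3 and STAR 2.7.3a on GRCh38 (hg38), with Trim Galore 0.6.5 and FastQC 0.11.9 named as well, per the submitters' processing notes; the annotation version is not given in the sources used here. Of 270 columns, 60 matched a sample by name and 210 were not used. RSEM divides reads among similar genes by estimate, and 8.68% of the values were not whole.

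Counts were rounded, scaled by TMM over 60 libraries and tested with edgeR 4.0.16 (quasi-likelihood, limma 3.58.1, R 4.3.3) on the 57 libraries of the 19 groups with 3 libraries, after a filter on low counts by group (16461 genes). The p-values were Benjamini-Hochberg adjusted within each of 19 comparisons, with a threshold of 0.05; a log2 fold change is high over low dose or extract over vehicle, and CPM are TMM-scaled. The fit was tested on simulated data. The 37 genes and the wider lists were chosen with earlier results of these data known. Named genes were members called between doses, the remaining members by range and count, and at most 4 called genes with the smallest adjusted p of each wider list; the members given beside a missed threshold, FNIP2, and HMOX1 and GCLM were added after their values were seen. Coordinates and exon lengths are from GENCODE 29, promoters from RefSeq (GRCh38.p14). Replicate numbers were not used as pairs in the main fit. In no comparison did all 3 correlations of same-numbered libraries exceed 0.1, a rule that does not exclude pairing. In the citrus peel and cimicifuga set, library 3 differs from libraries 1 and 2 in RN7SL2. Alternatives were DESeq2 1.42.0 and its size factors, no filter, replicate terms, the compared groups only, and left-out libraries.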

Additional observations from a re-analysis of the deposited data

Results flagged for a closer look

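In 6 cases the effect of dose on a member differed between 2 extracts by a test of the difference itself (edgeR, adjusted p under 0.05). SQSTM1 had a higher dose effect with cimicifuga than with citrus peel, by 0.59 on the log2 scale, and with aconite than with citrus peel, by 0.43. OPTN had a higher dose effect with aconite than with bupleurum, by 0.35, and than with citrus peel, by 0.34. FLCN had a lower dose effect with aconite than with cimicifuga, at -0.46, and than with Yijung-tang, at -0.44. Of these, 5 share the aconite libraries. Each call was lost in at least 1 of 22 alternatives. The SQSTM1 calls were lost in 1 (against cimicifuga's partner citrus peel) and 2 (aconite against citrus peel). The OPTN calls were lost in 14 (against bupleurum) and 16 (against citrus peel), and the FLCN calls in 5 (against cimicifuga) and 8 (against Yijung-tang). The shares of all genes called in these comparisons, given above, apply here too.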

How the results depend on the processing

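SQSTM1 with cimicifuga, high against low dose, was called in all 16 alternatives, with a log2 fold change of 0.40 to 0.46. Without the 4 libraries that stood apart, the members called between doses were 2 with citrus peel and 4 with cimicifuga; against vehicle, 1 with bupleurum and 11 with aconite; and for differences in dose effect, 2 for aconite against bupleurum, 2 against Yijung-tang, 1 against Banhasasim-tang, and 3 for cimicifuga against citrus peel. With the compared groups only, cimicifuga gave 2 between doses and 1 against vehicle, and aconite gave 0 in both; aconite against citrus peel gave 1, and aconite against cimicifuga, bupleurum and Yijung-tang 0 each. DESeq2 gave 1 with citrus peel, 2 with cimicifuga and 1 with Banhasasim-tang between doses, and 2 with bupleurum against vehicle. With no filter, bupleurum and Banhasasim-tang gave 1 each between doses, and aconite against cimicifuga, bupleurum and Yijung-tang 0 each. Where a comparison held none of the 4 libraries, as with citrus peel and cimicifuga between doses, its libraries were unchanged and the fit shared by all groups differed. The cause of the other shifts was not tested. The share of all genes called is not given here for these alternatives.

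The replicate block over all groups changed no count of members called; the replicate block within library set changed the count for aconite against citrus peel to 1. At a log2 ratio of 0.3, 5 members passed with Bojungikgi-tang. Shares of all genes are not given here for that ratio or for the fits with libraries left out. Leaving out libraries gave, between doses, 2 to 5 members with aconite, 0 to 6 with Banhasasim-tang, 0 to 2 with bupleurum, 1 to 1 with cimicifuga, 0 to 1 with citrus peel and 0 to 0 with Yijung-tang. Against vehicle the ranges were 2 to 7 with aconite (7 without aconite high-dose replicate 2), 0 to 4 with Banhasasim-tang, 0 to 0 with bupleurum, 1 to 2 with cimicifuga, 0 to 3 with citrus peel and 0 to 0 with Yijung-tang. For differences in dose effect they were 0 to 3 for aconite against citrus peel, 0 to 1 against Banhasasim-tang, bupleurum, cimicifuga and Yijung-tang, 0 to 1 for cimicifuga against citrus peel and 0 to 0 for Banhasasim-tang against Yijung-tang. VMP1 with aconite, high against low dose, ranged from -0.0416 to 0.3838 on leaving out replicates and reversed without replicate 2 of every group.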
